A study of Mus musculus with 18 samples.

Results

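The genes described here are 8 chains of kinesin motors: the kinesin light chains Klc1, Klc2 and Klc4, the kinesin-1 heavy chains Kif5a, Kif5b and Kif5c, and the kinesin-3 motors Kif1a and Kif1b. They were taken by symbol, and they are 8 of the 39017 gene identifiers counted. Their exons are split into 321 of the 355320 exon bins counted, a bin being a stretch of a gene between neighbouring exon borders. Klc1 receives the most room, with all 10 of its bins from 025 on, which cover the end of the gene. Klc1 was chosen with its response to Ptbp1 overexpression known, and Kif5c with its level under the Ptbp1 shRNA known, so those values are given as descriptions without a test. Klc1 was selected on its bin counts in the overexpression libraries, and Kif5c on its gene counts in the silencing libraries.

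Kinesins are motors that walk along microtubules and carry cargo, in neurons mostly from the cell body into axons and dendrites. Kinesin-1 is built from a pair of heavy chains, which hold the motor, and a pair of light chains, which bind cargo and keep the idle motor folded. Kinesin light chain 1 exists as several splice forms that share the cargo-binding repeats and differ at the C-terminal end. Kinesin-3 motors need no light chains. Kif1a carries synaptic vesicle precursors and dense core vesicles, and Kif1b carries synaptic vesicle precursors and, as another splice form, mitochondria.

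The RNA was bound to tagged ribosomes of mouse brain (TRAP, translating ribosome affinity purification), from 18 mice in 2 experiments on Ptbp1, an RNA-binding protein that keeps many exons out of mRNA and is low in neurons. The silencing experiment had 4 mice given a vector with an shRNA against Ptbp1 and 5 given a scrambled shRNA. The overexpression experiment had 5 mice given a vector with Ptbp1 and 4 given a control vector. All vectors of both experiments also carried mCherry, and the authors left out 1 Ptbp1 shRNA mouse and 1 control vector mouse that lacked mCherry reads. The design places the tissue in the entorhinal cortex, pooled over both sides of a mouse, and the title in its layer II neurons, while the tissue label of the libraries reads hippocampus. Mouse line, age, promoter and vector type are not stated in the labels.

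Gene counts ran from 34339355 to 46544178 per silencing library and from 18288627 to 39056655 per overexpression library. Coverage was less even in the silencing experiment, where 1.24% to 8.30% of 56285 well covered exon bins were at 0 in a library, against 0.0213% to 0.0551% in overexpression. The common biological coefficient of variation was 90.1% in silencing and 22.3% in overexpression. The libraries labelled Ptbp1 shRNA held 5.09 CPM ± 6.10 of Ptbp1 (CPM are counts scaled to a common library size, SD, n = 4). Those labelled scrambled shRNA held 4.10 ± 3.76 (n = 5), and no difference was called (edgeR adjusted p = 0.961). The log2 fold change of 0.31 had a 95% interval from -2.43 to 3.05, too wide to tell a fall from a rise. The silencing libraries are therefore named by their labels. In overexpression Ptbp1 rose from 13.3 CPM ± 3.03 (n = 4) to 137 ± 14.9 (n = 5; log2 fold change 3.36, edgeR adjusted p = 5.48e-08). Its neuronal paralog Ptbp2 fell by 1.20 on the log2 scale (edgeR adjusted p = 7.81e-05). All 10 excitatory neuron markers listed were detected in each group. Their summed level was 2744 to 3630 CPM in control vector libraries and 2470 to 3285 in Ptbp1 vector libraries. Of the markers tested, 6 of 10 excitatory, 4 of 8 interneuron and 5 of 10 astrocyte markers were higher with the Ptbp1 vector. So were 7 of 9 oligodendrocyte and 4 of 5 microglia markers. None of them passed the edgeR adjusted threshold, which 0.0425% of all genes passed. Microglia markers summed to 10.6 to 19.7 CPM with the Ptbp1 vector and 11.5 to 15.2 with the control vector.

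Klc1 lies on the plus strand of mouse chromosome 12 (mm10, 111758849 to 111807844) and has alternative 3′ ends. The proximal end is formed by bins 023 to 025 (111794337 to 111794897), where transcripts Klc1-202 and Klc1-203 stop. Bin 024 in it is 497 bases of UTR. The distal end is formed by bin 027 (131 bases, coding, 111795548 to 111795678), bin 029 (67 bases, 111806008 to 111806074) and bin 030 (397 bases of UTR, 111806315 to 111806711), and it belongs to transcripts Klc1-201 and Klc1-204. Bins 031 to 033 are the tail of the same last exon, and bin 034 is UTR of transcript Klc1-206. Bins 026 and 028 are segments directly upstream of bins 027 and 029, annotated as retained in the non-coding transcripts Klc1-208 and Klc1-209.

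Bin 027, the first 57 bases of bin 029 and the segments of 196 bases before both are shown because these exons carry the change in the overexpression experiment. Bin 029 has 67 bases and is coding in 1 transcript and UTR in another. Its stretch labelled coding part stops before the first base that is UTR in transcript Klc1-206. They were read from GENCODE M21 transcripts on the plus strand of chromosome 12, 5′ to 3′, at 111795352 to 111795547, 111795548 to 111795678, 111805812 to 111806007 and 111806008 to 111806064. Capitals mark TCTT and CTCT, short pyrimidine motifs of the kind that Ptbp1 binds. They may overlap, as in CTCTT.
Klc1 segment before bin 027: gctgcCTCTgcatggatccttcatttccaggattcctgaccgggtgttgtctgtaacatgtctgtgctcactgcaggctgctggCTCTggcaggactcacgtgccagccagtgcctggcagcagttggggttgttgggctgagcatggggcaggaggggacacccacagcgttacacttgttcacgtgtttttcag
Klc1 bin 027: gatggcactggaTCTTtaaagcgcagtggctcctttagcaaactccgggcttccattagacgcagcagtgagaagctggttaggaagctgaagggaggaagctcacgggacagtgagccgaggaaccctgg
Klc1 segment before bin 029: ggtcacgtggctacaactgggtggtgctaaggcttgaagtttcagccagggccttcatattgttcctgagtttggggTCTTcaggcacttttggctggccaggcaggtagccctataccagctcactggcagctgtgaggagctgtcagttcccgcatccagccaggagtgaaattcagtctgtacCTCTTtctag
Klc1 bin 029 coding part: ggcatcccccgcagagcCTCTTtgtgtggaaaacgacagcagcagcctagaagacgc

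The segment before bin 027 held CTCT at 2 places and no TCTT, and the segment before bin 029 held TCTT at 2 places and CTCT at 1. Bin 027 held 1 TCTT, and the coding part of bin 029 held 1 of each motif. On the other strand (AAGA and AGAG) the 4 stretches held 1 match of each motif, both in bin 029. Pyrimidines made up 48.0% of the last 50 bases before bin 027 and 58.0% of those before bin 029. Among all 445 exon bins of 196 bases, 52.8% held TCTT and 63.1% CTCT. Among the 1058 bins of 131 bases 41.1% held TCTT, and among the 1053 bins of 57 bases 21.4% held TCTT and 26.1% CTCT. These matches describe the letters in the stretches shown and are common in exon bins of these lengths. The segments before bins 027 and 029 are exonic only in the non-coding transcripts Klc1-208 and Klc1-209, and introns were not used as a background.

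In overexpression the distal Klc1 exons made up 10.1 times the share of the end counts seen in controls, while the other tested bins of the gene moved by no more than 0.39 on the log2 scale. Bin 027 had 189, 120, 80, 61 and 75 counts in the 5 Ptbp1 vector libraries and 11, 7, 7 and 10 in the 4 control vector libraries. As a share of all bin counts of Klc1 in a library, its usage was 0.619% ± 0.162 (SD, n = 5) against 0.0530% ± 0.00934 (n = 4). The lowest Ptbp1 vector library, at 0.419%, stood above the highest control at 0.0642%.

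Bin 029, the next coding exon, had 178, 113, 85, 75 and 78 counts with the Ptbp1 vector and 23, 6, 6 and 8 with the control vector. Its usage was 0.633% ± 0.115 against 0.0644% ± 0.0467. Bin 030, the distal UTR, had 297, 228, 163, 145 and 133 counts against 45, 9, 12 and 22. All 5 Ptbp1 vector libraries were above all 4 controls in each of these exons. Control replicate 1 was the highest control in all 3 exons.

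Relative to the other bins of the gene, the log2 relative usage was 3.53 (SE 0.26) for bin 027, 3.27 (SE 0.25) for bin 029 and 3.11 (SE 0.20) for bin 030. Without control replicate 1 it was 3.93 for bin 029 and 3.71 for bin 030. The other 23 Klc1 bins tested lay between -0.11 and 0.39. Among them the 51-base exon 022, which belongs to Klc1-203, had a log2 relative usage of -0.09 (SE 0.13), and the large proximal UTR bin 024 had -0.08 (SE 0.12). Bin 025, the last 2 bases of the proximal UTR, had -0.10 (SE 0.16). Its usage was 0.905% ± 0.0692 with the Ptbp1 vector and 0.967% ± 0.176 with the control vector. For all bins tested in this contrast, 40 of 117580 passed the edgeR adjusted threshold, 0.034%. These 3 Klc1 bins are among those 40, which is how the gene was chosen, and the count carries no further weight.

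**Figure D1:**
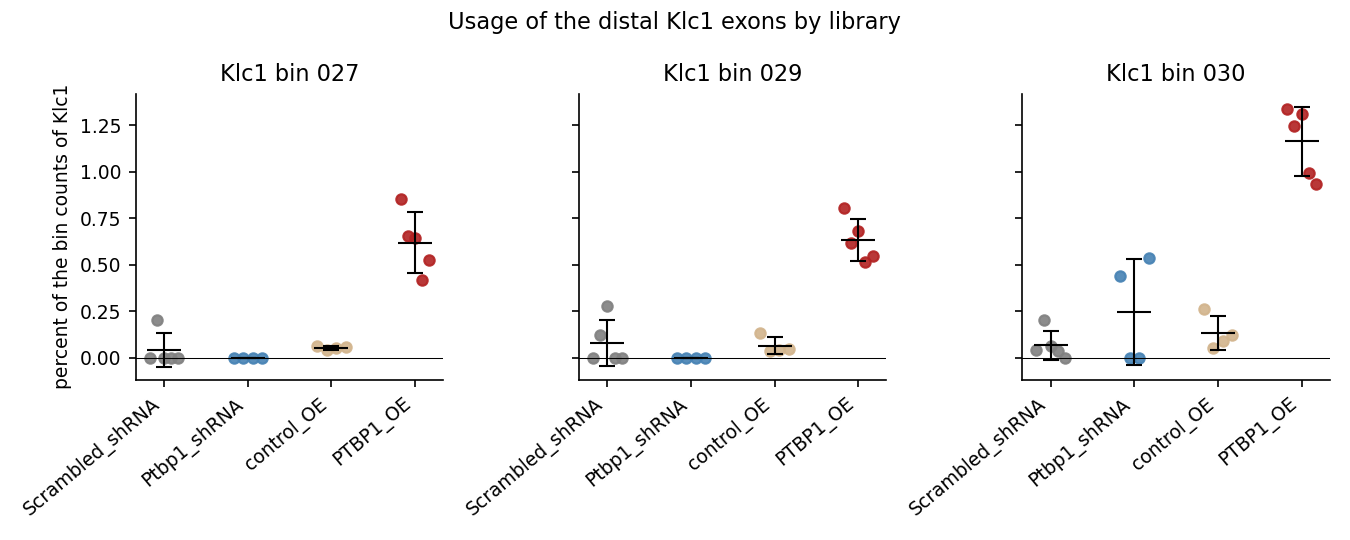
Usage of the distal Klc1 exons 027, 029 and 030 in each library, as percent of all bin counts of Klc1; points are libraries in the 4 groups, bars the mean and SD. The 5 Ptbp1 vector libraries lie above all controls in each exon, and most silencing libraries lie at or near 0.

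**Figure D2:**
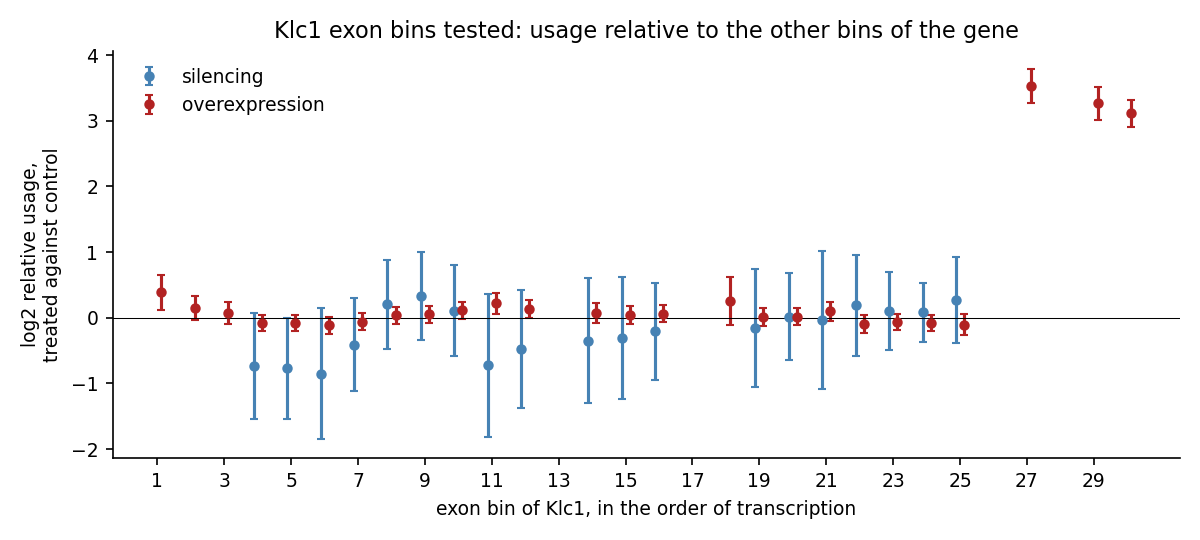
Log2 relative usage of each tested Klc1 bin, treated against control, with its SE, in bin order along the gene, for silencing and overexpression. In overexpression bins 027, 029 and 030 stand between 3.11 and 3.53, and the other 23 bins between -0.11 and 0.39.

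Of the smaller bins, those in the last exon and the segment before bin 029 also held more counts with the Ptbp1 vector. Bin 031, the 15 bases after bin 030, had 34 counts in all with the Ptbp1 vector and 2 with the control vector. Bins 032 and 033 had 6 and 3 counts with the Ptbp1 vector and 0 and 0 with the control vector. Bin 028, the segment retained before bin 029, had 15 counts against 1, and bin 026 had 5 against 3. Bin 034 had 41 counts (4 to 13 per library) against 40 (1 to 17), with overlapping groups, and it shares its position with an exon of Xrcc3, a DNA repair gene on the other strand. Xrcc3 itself had 8.48 CPM ± 2.30 against 12.5 ± 2.98 (log2 fold change -0.57, edgeR adjusted p = 0.974). No exon of another gene overlaps bins 026 to 033, but bins 028 to 033 lie within the span of Xrcc3 (111803192 to 111813873). Control vector replicate 1 had the highest Xrcc3 level of the control vector libraries, 16.4 CPM. The part of Xrcc3 RNA in the counts of bins 028 to 033 was not tested.

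Set against each other, the distal bins 027, 029 and 030 made up 6.66%, 5.67%, 5.92%, 4.11% and 4.51% of the counts at both ends with the Ptbp1 vector. The control vector libraries had 0.891%, 0.324%, 0.401% and 0.509%. The means were 5.37% ± 1.04 and 0.531% ± 0.252, a ratio of 10.1, or 13.1 without control replicate 1. The proximal end therefore kept most of the counts in every library. Per base, the distal bins reached 14.0% ± 2.76 of the level of bins 005 to 010, coding exons shared by the transcripts Klc1-201 to Klc1-204, against 1.55% ± 1.21 in controls, a ratio of 9.05, or 14.7 without control replicate 1. Bin 024 stood at 240% ± 15.5 and 257% ± 70.6 of those exons per base.

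**Figure D3:**
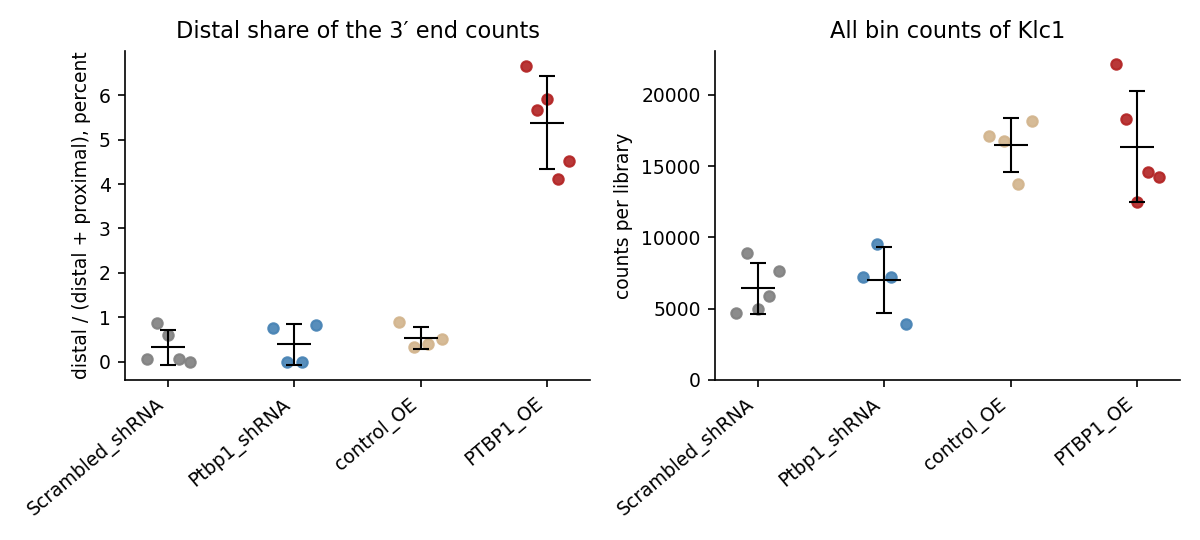
Left, distal counts as percent of distal and proximal counts of Klc1 in each library; right, all bin counts of Klc1 per library (not scaled to depth); bars give the mean and SD. The distal share is 4.11% to 6.66% with the Ptbp1 vector and at most 0.891% in the other 13 libraries.

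The silencing experiment gives the same measure in libraries that played no part in choosing Klc1. Bin 030 had 32, 0, 0 and 21 counts in the 4 libraries labelled Ptbp1 shRNA and 2, 18, 3, 2 and 0 in the 5 labelled scrambled shRNA. Its usage was 0.244% ± 0.284 against 0.0677% ± 0.0782, and the difference of 0.176 percentage points was within the spread (exact permutation test, two-sided, p = 0.286, smallest possible 0.00794). Both groups held libraries at 0.

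Bins 027 and 029 had no counts in any Ptbp1 shRNA library, 0 of 27944 Klc1 bin counts, which allows a share of up to 0.0107% (counting error only). Of the scrambled shRNA libraries, replicate 2 had 18 counts in bin 027 and 11 in bin 029, replicate 3 had 14 in bin 029, and the others had none. Replicate 3 also had 14 counts in bin 028, the segment directly before bin 029, where every other silencing library had 0. Xrcc3, whose span holds both bins, was highest in replicate 3 among the silencing libraries, at 17.2 CPM. The counts of replicate 3 in bin 029 are part of the distal share given next. Whether they come from spliced Klc1 RNA or from Xrcc3 was not tested. The distal share of the end counts was 0.398% ± 0.461 against 0.325% ± 0.396 (exact permutation test, two-sided, p = 0.770). None of the 19 Klc1 bins tested in silencing, 004 to 025, passed the edgeR adjusted threshold, which 1 of 83164 bins passed, 0.0012%, and their smallest unadjusted p was 0.350. Bin 025 made up 4.68% ± 0.782 of the gene in the Ptbp1 shRNA libraries and 3.83% ± 0.607 in the scrambled shRNA libraries. Bins 026 to 034 held too few counts to be tested there. Bin 031 had 4 counts in all in the Ptbp1 shRNA libraries and 2 in the scrambled shRNA libraries, and bin 033 had 1 and 0. Bins 026, 032 and 034 had 0 in both groups. In the silencing libraries bin 024 stood at 273% to 808% of bins 005 to 010 per base, against 194% to 357% in overexpression, so counts were more concentrated near the proximal end.

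The whole Klc1 gene was lower in all 5 Ptbp1 vector libraries than in all 4 controls. Its level was 602, 640, 666, 698 and 707 CPM with the Ptbp1 vector and 851, 744, 875 and 881 with the control vector. The means were 663 ± 42.9 and 838 ± 63.7 (log2 fold change -0.34, SE 0.08). In that contrast 7 of 16480 genes passed the edgeR adjusted threshold, 0.0425%, and Klc1 was not among them. Groups were apart in that direction for 113 of the 16480 genes, 0.686%. In silencing the log2 fold change of Klc1 was 0.10 (SE 0.30, edgeR adjusted p = 0.942), with 215 CPM ± 79.4 in scrambled and 231 ± 72.2 in Ptbp1 shRNA libraries.

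The light chains Klc2 and Klc4 showed no change past the threshold in overexpression either. Klc2 went from 151 CPM ± 16.4 to 163 ± 34.8 (edgeR adjusted p = 0.974). Klc4, a minor light chain here, went from 7.80 ± 1.15 to 9.16 ± 1.24 (log2 fold change 0.23, edgeR adjusted p = 0.974), with overlapping groups. In silencing, Klc2 had 16.6, 59.8, 8.27 and 7.92 CPM in the Ptbp1 shRNA libraries and 15.6, 23.5, 5.69, 35.01 and 25.98 in the scrambled shRNA libraries. Levels of Klc2 were low and overlapped, with Ptbp1 shRNA replicate 2 standing highest. Klc4 had 6.38, 8.81, 4.79 and 1.80 against 0.0260, 0, 0.256, 0.0218 and 7.98 CPM. That gives a log2 fold change of 1.72 with a 95% interval from -1.90 to 5.34 (edgeR adjusted p = 0.783). Scrambled shRNA replicate 5 alone reached the level of the Ptbp1 shRNA libraries, and without it the log2 fold change was 6.11 (edgeR adjusted p = 0.169).

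Among the kinesin-1 heavy chains, Kif5c, the neuronal form enriched in motor neurons, and Kif5b, the form present in all tissues, had higher mean levels in the libraries labelled Ptbp1 shRNA. Kif5c had 1222, 951, 1034 and 932 CPM in the Ptbp1 shRNA libraries and 693, 724, 606, 632 and 470 in the scrambled shRNA libraries. The means were 1035 ± 133 and 625 ± 98.4 (log2 fold change 0.73, SE 0.18), and the groups did not overlap. Groups were apart in that direction for 2.39% of 14656 genes in that contrast, and no gene passed the edgeR adjusted threshold, 0%, while 1639 (11.2%) had an unadjusted p under 0.05, and DESeq2 called 709 genes and limma 69. Kif5c was chosen with this difference known.

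Kif5b had 413, 687, 783 and 580 CPM in the Ptbp1 shRNA libraries against 315, 371, 354, 431 and 506 in scrambled shRNA libraries. The groups overlap, and the log2 fold change of 0.64 (SE 0.22) missed the threshold (edgeR adjusted p = 0.296). Kif5a, the heavy chain restricted to neurons, had 429 CPM ± 155 against 389 ± 73.0 (edgeR adjusted p = 0.890). In overexpression the heavy chains stayed close to their controls. Kif5b had 171 ± 11.2 against 168 ± 13.4 CPM, and its log2 fold change of 0.03 had a 95% interval from -0.15 to 0.21. Kif5c had 607 ± 43.0 against 648 ± 68.7, with an interval from -0.28 to 0.09. Kif5a had 377, 527, 395, 483 and 460 CPM with the Ptbp1 vector against 510, 581, 517 and 478 with the control vector. The Kif5a groups overlap, and the log2 fold change of -0.22 did not pass the threshold (edgeR adjusted p = 0.974).

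The kinesin-3 motors differed in sign in silencing. Kif1a had 878.1, 1339, 781 and 771 CPM in the Ptbp1 shRNA libraries against 883, 346, 485, 700 and 524, a log2 fold change of 0.68 (SE 0.27, edgeR adjusted p = 0.368). Kif1b had 487, 271, 279 and 515 against 649, 460, 594, 700 and 415, a log2 fold change of -0.54 (SE 0.26, edgeR adjusted p = 0.460). Both pairs of groups overlapped and neither passed the threshold. Neither motor differed from its controls in overexpression beyond the spread. Kif1a had 938 ± 100 against 961 ± 130 CPM and Kif1b 614 ± 78.3 against 670 ± 128 CPM. On the log2 scale they moved by -0.04 and -0.12 (edgeR adjusted p = 0.984 and 0.974).

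Beside the silencing values of these chains stand markers of the cell types. The summed level of 10 excitatory neuron markers was 1792 to 3033 CPM in the Ptbp1 shRNA libraries and 3376 to 4969 in the scrambled shRNA libraries, without overlap. Camk2a made up a large part of that sum, with 1471 CPM ± 551 against 2725 ± 715. Of the 10 excitatory markers 2 were higher and 8 lower. The summed level of 10 astrocyte markers was 407 to 994 against 887 to 1376 CPM, and that of 8 interneuron markers 312 to 495 against 417 to 552. Slc1a2 made up a large part of the astrocyte sum, with 554 CPM ± 211 against 850 ± 156. Of 9 astrocyte markers tested 3 were higher and 6 lower, and of 7 interneuron markers 1 was higher and 6 lower. The astrocyte marker with the smallest p was Atp1b2, with 106 CPM ± 51.2 against 303 ± 45.4 (edgeR adjusted p = 0.0758). Among the excitatory markers it was Rorb, with 77.3 ± 21.7 against 146 ± 20.5 (edgeR adjusted p = 0.202). The 8 microglia markers summed to 1.43 to 18.2 against 7.30 to 26.3 CPM, with C1qa at 0 in every silencing library and C1qb at 0 in every Ptbp1 shRNA library. The 10 oligodendrocyte markers summed to 64.7 to 123 against 88.2 to 137 CPM, with medians of 119 and 97.9, and Mag was at 0 in every silencing library. Of 7 oligodendrocyte markers tested 1 was higher and 6 lower, and of 3 microglia markers 1 was higher and 2 lower. The part of these shifts in the kinesin levels was not tested. In TRAP RNA pooled over many cells, fewer cells of a type, less RNA per cell and a difference in the pull-down cannot be told apart.

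**Figure D4:**
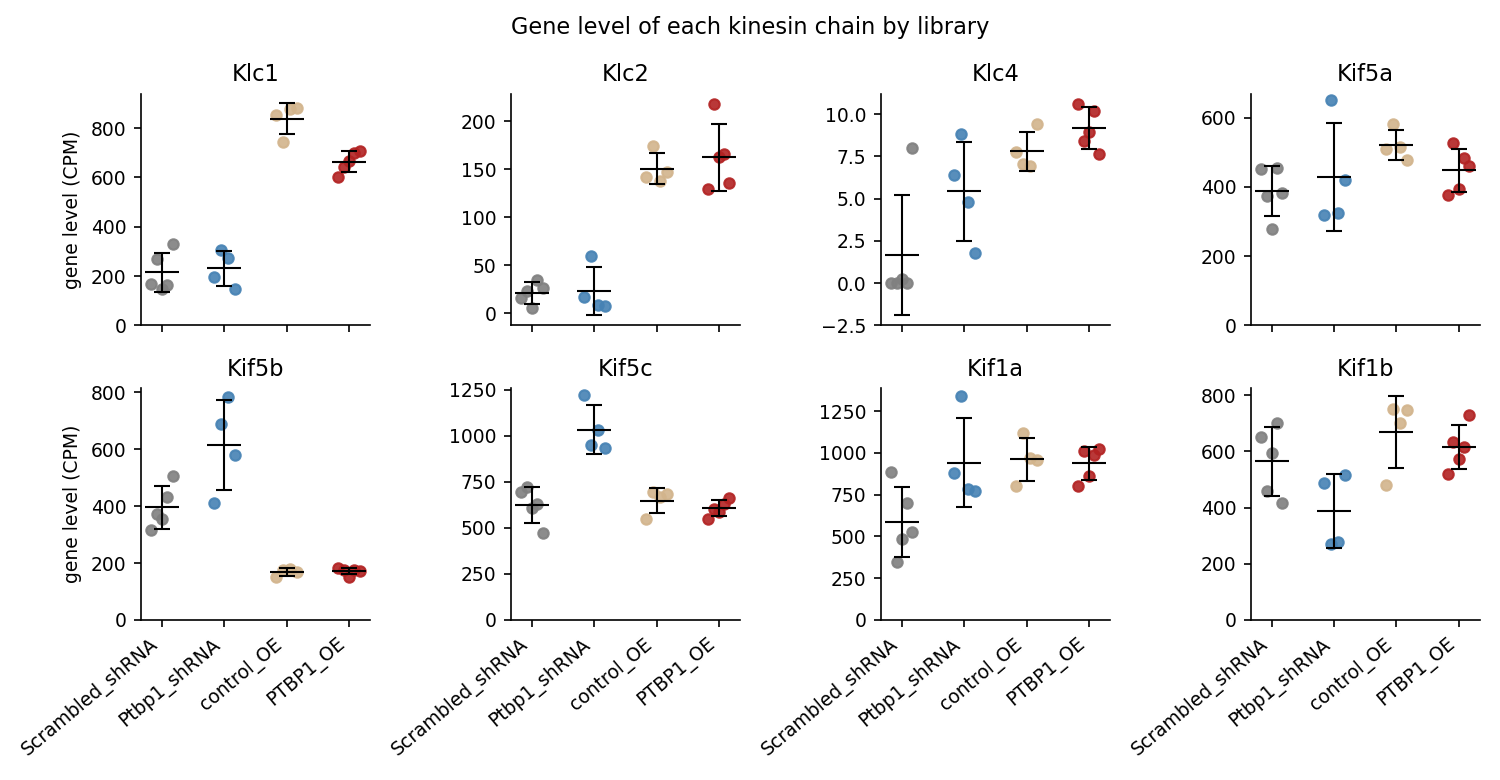
Gene level in CPM of each of the 8 kinesin chains in each library, in the 4 groups; bars give the mean and SD. Levels were scaled within each experiment, so the left and right pair of groups in a panel are not on a shared scale; Kif5c shows separate groups in silencing and Klc1 in overexpression.

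**Figure D5:**
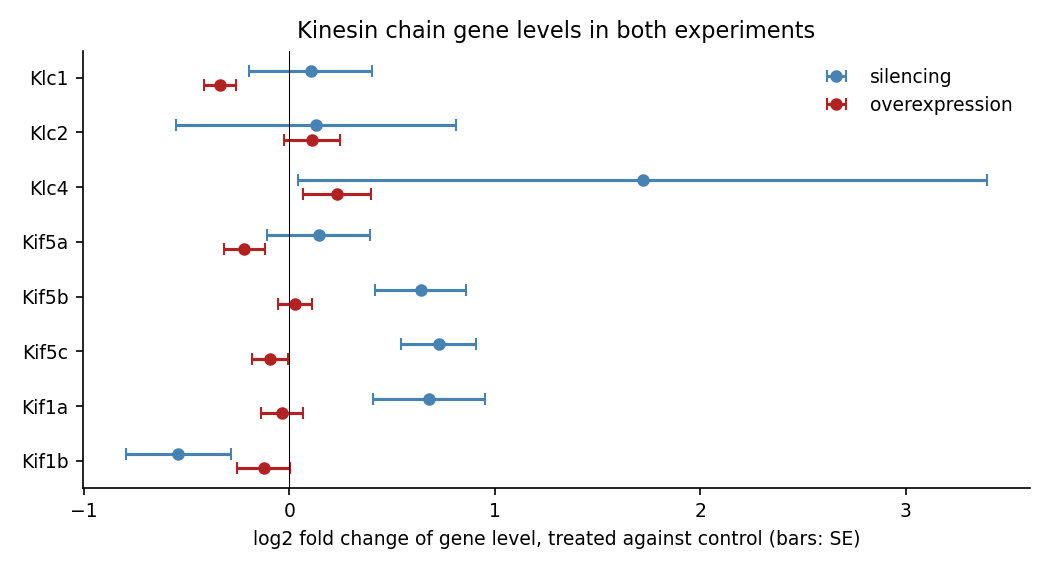
Log2 fold change of gene level with its SE for each kinesin chain, treated against control, in silencing and in overexpression. The SE is larger in silencing for each chain, and largest for Klc4 there, at 1.67.

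The responses in the 2 experiments were set against each other in 1 fit over all 18 libraries. Overexpression minus silencing was -0.61 for Kif5b (SE 0.24, edgeR adjusted p = 0.226), -0.71 for Kif1a (SE 0.31, edgeR adjusted p = 0.288) and 0.42 for Kif1b (SE 0.30, edgeR adjusted p = 0.557). Kif5c differed by -0.81 (SE 0.19) and Klc1 by -0.44 (SE 0.31), both given without a test. None of the 8 chains was among the genes that passed the edgeR adjusted threshold, 40 of 17779, 0.225%.

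Per kilobase of exon, Klc1 was the most abundant of the 8 chains in the control vector libraries, with 206 CPM per kb ± 15.7 (n = 4), and its values did not overlap those of the next gene. Kif1a followed with 116 ± 15.8, Kif5c with 90.7 ± 9.61 and Kif5a with 82.9 ± 6.86, and neighbours among these 3 overlapped. Kif1b (38.0 ± 7.29) and Klc2 (36.4 ± 3.97) overlapped each other, then came Kif5b (22.7 ± 1.81) and Klc4 (3.36 ± 0.497). With the Ptbp1 vector the first 4 kept this order, and Klc2 (39.3 ± 8.42) and Kif1b (34.9 ± 4.45) stood in the other order, within their spread. In the scrambled shRNA libraries, whose levels were scaled separately, Kif5c led with 87.5 ± 13.8 and Klc1 was the fifth with 52.8 ± 19.5, and all neighbours from Kif5c down to Kif1b overlapped. Klc2 stood at 5.12 ± 2.68 there. The lengths count every annotated exon, so a gene with long exons that are little used is placed too low.

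The exon bins of the other 7 chains gave no call in either experiment. In overexpression 23 bins of Klc2, 9 of Klc4, 29 of Kif5a, 35 of Kif5b, 32 of Kif5c, 54 of Kif1a and 64 of Kif1b were tested. The bins with the smallest p per gene had adjusted p-values (edgeR) of 0.999995. Among these, Kif5c bin 029, a coding exon of 61 bases (chromosome 2, 49744686 to 49744746), made up 0.996% ± 0.104 of the gene with the Ptbp1 vector and 1.25% ± 0.103 with the control vector. Kif1b bin 002, 845 bases of UTR on chromosome 4 (149178018 to 149178862), made up 2.07% ± 0.0965 against 2.56% ± 0.0604. The groups did not overlap in either bin, as in 0.832% of all bins tested in that direction, and both were picked out of many bins by their small p.

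Klc4 bin 009, a coding exon of 174 bases (chromosome 17, 46636620 to 46636793), had 3.67% ± 1.90 of the gene against 6.16% ± 0.818, with overlapping groups. Of Klc2 (bin 024), Kif5a (bin 010), Kif5b (bin 039) and Kif1a (bin 053) the log2 relative usage was 0.28, 0.27, 0.48 and -0.21. In silencing, 10 bins of Klc2, 28 of Kif5a, 33 of Kif5b, 32 of Kif5c, 51 of Kif1a, 49 of Kif1b and none of Klc4 were tested. Kif1a bin 040 had 0.244% ± 0.188 against 1.29% ± 1.48, a log2 relative usage of -2.66 (edgeR unadjusted p = 0.00464, adjusted p = 0.999998). The first exon of Kif5a (bin 029, part coding and part UTR, chromosome 10, 127262768 to 127263348) had 0.752% ± 0.676 against 2.41% ± 0.712 (edgeR unadjusted p = 0.0330, adjusted p = 0.999998). The bins with the smallest p of Klc2 (022), Kif5b (035), Kif5c (020) and Kif1b (049) had log2 relative usages of 1.24, -1.51, 1.37 and 2.56. The direction of Kif1b bin 049 (0.386% ± 0.692 against 0.0830% ± 0.0799) rests on Ptbp1 shRNA replicate 4, without which it was -1.02. Groups overlapped in all 6 of these silencing bins.

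Genes that work with these motors were looked up in lists of related motors, adaptors and regulators. No gene of these lists passed the edgeR adjusted threshold in either experiment, beside a background of 0% in silencing and 0.0425% in overexpression. Of 37 other kinesin motors and subunits, 25 were tested in silencing, 13 higher and 12 lower (median log2 fold change 0.02, all genes 0.03). In overexpression 30 were tested, 13 higher and 17 lower (median -0.02, all genes -8.02e-05). In silencing Kif2a, which takes microtubules apart at their ends, had 515 CPM ± 139 against 322 ± 52.8 (edgeR adjusted p = 0.262), and Kif13a, a motor of endosomes, 0.849 ± 1.16 against 12.1 ± 7.81 (edgeR adjusted p = 0.262). In overexpression the mitotic motor Kif11 had 3.26 ± 0.577 against 1.97 ± 0.360 (edgeR adjusted p = 0.843) and Kif9 5.86 ± 2.001 against 3.72 ± 0.459 (edgeR adjusted p = 0.974). The Kif11 groups did not overlap, and the share of all genes apart in that direction was not counted.

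All 26 listed adaptors of kinesin-1 cargo were tested. In overexpression 5 were higher and 21 lower, with a median of -0.06. The median of all genes was -8.02e-05, so all genes tested split about evenly, and the skew of this list was not tested. Of the adaptors 1, Htt (huntingtin, 91.2 CPM ± 13.2 against 110 ± 9.48), had an unadjusted p under 0.05, as did 4.78% of all genes tested. Clstn3 had 46.6 ± 12.6 against 57.9 ± 9.59 (edgeR adjusted p = 0.974). In silencing 14 of the adaptors were higher and 12 lower, with a median of 0.05 (all genes 0.03). Ktn1, an anchor of kinesin on the endoplasmic reticulum, had 164 CPM ± 46.5 against 88.6 ± 39.0 there (edgeR adjusted p = 0.345), and Syt4, found on dense core vesicles, 321 ± 91.5 against 209 ± 52.8 (edgeR adjusted p = 0.370).

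Of 15 adaptors of kinesin-3 cargo tested, 8 were higher and 7 lower in silencing and 5 and 10 in overexpression. The liprin Ppfia2, a presynaptic scaffold that binds Kif1a, had 1285 CPM ± 193 in the Ptbp1 shRNA libraries against 659 ± 149 (log2 fold change 0.96, edgeR adjusted p = 0.106). Its relative Ppfia1 had 103 ± 17.2 against 54.6 ± 14.2 (edgeR adjusted p = 0.224). The groups of both liprins did not overlap, as in 2.39% of all genes in that direction. In overexpression Ppfia1 had 42.5 ± 5.40 against 33.0 ± 5.87 and Arl8b, a small GTPase on lysosomes, 300 ± 16.2 against 343 ± 16.6 CPM (edgeR adjusted p = 0.954 and 0.974). Of 17 kinesin regulators on microtubules tested, 10 were higher in silencing and 6 in overexpression. The microtubule-associated kinase Dclk1 had 2075 ± 455 against 3263 ± 924 CPM in silencing (edgeR adjusted p = 0.311), and Ranbp2 360 ± 179 against 213 ± 29.4 (edgeR adjusted p = 0.323). The Ranbp2 groups did not overlap either, as in 2.39% of all genes in that direction. In overexpression Cdk5 had 76.2 ± 1.59 against 87.7 ± 6.69 and Mark1 55.0 ± 2.55 against 63.5 ± 4.91 (edgeR adjusted p = 0.974 for both). The overexpression groups of Arl8b and of Mark1 did not overlap, as in 0.686% of all genes in that direction.

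By Pearson correlation of log2 CPM over the 9 overexpression libraries, among 13547 other genes, those most like the whole of Klc1 were Kctd6 (r = 0.94), Icmt (0.94) and Hdac3 (0.93). By usage, the bins most like Klc1 bin 030 among 120206 bins of other genes were Pkm bin 010 (r = 0.99), Agap3 bin 018 (0.98) and Ints10 bin 005 (0.97). Pkm bin 010, in the pyruvate kinase gene, went from a mean of 0.0741% to 0.286% of its gene, Agap3 bin 018 from 7.43% to 12.1% and Ints10 bin 005 from 2.02% to 2.78%. These correlations share the libraries and the split in 2 groups, and they are given as a description.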

How the data were processed

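Gene counts and exon bin counts of 18 libraries, 1 per mouse, were used as the authors deposited them, raw and whole. STAR 2.5.3a, HTSeq and build mm10 are named in the submitters' processing notes, with no roles. The labels do not say whether counting used strand. The last 5 lines of each exon file, reads in no single bin, stayed out of all sizes and tests. Bin coordinates were rebuilt from GENCODE M21 and used where the number of bins equals the deposited one (89.8% of 34765 identifiers), which leaves out Kif1a.

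Separate fits per experiment used edgeR 4.0.16 under R 4.3.3 (TMM, filterByExpr, robust quasi-likelihood F test, Benjamini-Hochberg over all genes, threshold 0.05). Bins were tested with edgeR's diffSpliceDGE. Usage is a bin's percent of all bin counts of its gene. The 95% intervals are from the fit. Klc1 bin 030 in silencing was compared by an exact permutation test over 126 splits. DESeq2 1.42.0 and limma 3.58.1 served as alternatives. Scripts were tested on simulated data.

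All 8 chains and every Klc1 bin from 025 on are named. Of the other chains the called bins, or else the 1 with the smallest p, are named per experiment. Of each list of motors, adaptors and regulators the called genes and the 2 with the smallest p are named. Cell type markers are given mainly as sums and counts, and not all with a small p are named. Members and lists were chosen with earlier results of these data known. Replicates are separate mice, and their numbers only name libraries.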

Additional observations from a re-analysis of the deposited data

Results flagged for a closer look

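In 48 groups of libraries of the kinesin chains and distal Klc1 bins, 4 held 1 library whose gap to its nearest neighbour, as a share of the group's range, exceeded Dixon's 95% critical value. For normally distributed values chance passes it in about 1 in 20 groups, and the rate for values with many zeros was not measured. Klc2 reached 59.8 CPM in Ptbp1 shRNA replicate 2, against 7.92 to 16.6 in the other 3 libraries of its group. Klc4 reached 7.98 CPM in scrambled shRNA replicate 5, against at most 0.256 in the other 4. These 2 libraries are also the least evenly covered, with 8.30% and 7.61% of well covered exon bins at 0, and the part of this in the values was not tested. Klc1 bin 027 made up 0.202% of the gene in scrambled shRNA replicate 2 and was at 0 in the other 4 scrambled shRNA libraries. Klc1 bin 029 made up 0.134% of the gene in control vector replicate 1, against 0.0358% to 0.0440% in the other 3 control vector libraries.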

How the results depend on the processing

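No paired analysis was possible because the mice of the groups compared are different animals, and the replicate numbers only name libraries. In silencing no kinesin chain passed the threshold with edgeR, 1 did with DESeq2 (Kif5c), and 2 did with all 18 libraries in 1 fit (Kif5c and Kif5b, the latter with an edgeR adjusted p of 0.0233). Kif5c was chosen with this contrast known, so its calls support nothing. Over all genes 11 were called with no filter on low counts, 709 with DESeq2, 69 with limma and 1775 with all 18 libraries in 1 fit, and 0 to 5 when 1 library was left out. In overexpression 39 genes were called with DESeq2 and 0 with all 18 libraries in 1 fit. The cause was not tested, but the joint fit shares 1 spread between experiments of unequal spread.

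With all 18 libraries in 1 fit, 9 of 274 bins of the kinesin chains (3.28%) were called in silencing, in place of 0, and 0 in overexpression, in place of 3. Over all 138200 bins 5214 (3.77%) and 1 were called, in place of 1 and 40. The 9 include Klc1 bin 029 (-5.54, edgeR adjusted p = 0.0313), which held too few counts for the separate fit. Its silencing counts lay in scrambled shRNA replicates 2 and 3 alone (11 and 14). The others called were Klc2 bin 030 (6.98) and Kif1b bins 036, 038 and 039 (5.05, 5.17 and 5.25). Lower were Kif1a bins 027, 038 and 040 (-3.61, -2.89 and -2.62) and Kif5a bin 029 (-1.93). The log2 relative usage of Klc1 bins 027, 029 and 030 in overexpression was 3.51, 3.26 and 3.11 in the joint fit. In silencing 5 bins were called at a mean of at least 50 counts, 3 with limma, 0 without the 2 least evenly covered libraries, and 0 to 3 with 1 library left out.

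In the comparison of the experiments the number of genes called ran from 1 (without control vector replicate 4) to 174 (without Ptbp1 shRNA replicate 4), and that of kinesin chains from 0 to 1. The chain was Klc4 without scrambled shRNA replicate 5 (-5.86, edgeR adjusted p = 0.0309) and Kif5c without Ptbp1 shRNA replicate 4. Leaving out control vector replicate 1 moved the log2 relative usage in overexpression to 3.93 for Klc1 bin 029 and 3.71 for bin 030. The difference in bin 030 usage in silencing stayed positive, at 0.0793 to 0.258 percentage points, with exact permutation p from 0.107 to 0.732. The alternative with bins 029 and 031 as denominator could not be run, since 3 silencing libraries had no count there.

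These directions turned. In silencing limma gave -0.20 for Klc2 and -0.013 for Kif5a, and leaving out the 2 least evenly covered libraries gave -0.87 and -0.14. For the difference of Klc2 between experiments limma gave 0.34. With 1 library left out, the log2 fold change in silencing ran from -0.96 to 0.41 for Klc2, -0.14 to 0.26 for Kif5a and -0.072 to 0.31 for Klc1. In overexpression it ran from -0.11 to 0.046 for Kif1a, -0.026 to 0.059 for Kif5b and -0.028 to 0.19 for Klc2. The difference of Klc2 ran from -0.29 to 1.07, and Kif1b bin 049 in silencing from -1.02 to 3.15. The uneven coverage in silencing limits what can be said of bins with few counts there.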
